A study of Mus musculus with 8 samples.

Results

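The IL-2 axis was followed as 10 genes of the 20170 in the count matrix: the cytokine gene Il2, the receptor genes Il2ra, Il2rb, Il2rg and Il7r, the transcription factor genes Stat5a and Stat5b, and the feedback inhibitor genes Cish, Socs1 and Socs2. They were chosen by gene symbol, with earlier results of these data known. Splenic T cells of WT and SDHA-KO mice were taken by magnetic pan T cell isolation and were either left unstimulated or stimulated for 48 hours with 5 μg/mL anti-CD3ε plus 2.5 μg/mL anti-CD28, and dead cells were removed before droplet-based single-cell RNA-seq. SDHA-KO mice carried Sdha fl/fl with CD4-Cre, in which Cre is driven by regulatory sequence of Cd4, so deletion is expected in T cells that express or once expressed Cd4 and not in cells that never did. The mice were on a C57BL/6 background, and the control libraries are labelled WT with no further allele. There were 8 libraries in 4 groups, each genotype with and without stimulation and 2 libraries per group, and all 10 genes passed the filter on low counts in both CD4 and CD8 cells. The labels do not say whether the libraries of a group came from different mice, so p-values measure the spread between these libraries, which may be technical.

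IL-2 is made by T cells within hours of antigen receptor and CD28 signaling and acts mainly on T cells themselves. Its high-affinity receptor joins the α chain (CD25, Il2ra), the β chain (CD122, Il2rb), which is shared with the IL-15 receptor, and the common γ chain (CD132, Il2rg), which is shared with the receptors for IL-4, IL-7, IL-9, IL-15 and IL-21. JAK1 and JAK3 on the β and γ chains activate STAT5A and STAT5B, which induce Il2ra, Cish and the SOCS genes, and CIS, SOCS1 and SOCS2 in turn restrain cytokine receptor signaling. The IL-7 receptor α chain (Il7r) marks resting and memory T cells and is repressed by activation and by IL-2 signals.

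The genes lie at separate loci, apart from the neighbors Stat5a and Stat5b. In RefSeq's annotation of GRCm38.p6, the build (mm10) that the submitters name, Il2 spans chr3:37120713-37125954, Il2ra chr2:11642792-11693194, Il2rb chr15:78479256-78511621, Il2rg chrX:101264385-101268255 and Il7r chr15:9506159-9529941. Stat5b (chr11:100780731-100859004) and Stat5a (chr11:100859351-100885169) stand side by side. Cish lies at chr9:107296659-107302784, Socs1 at chr16:10783808-10785536 and Socs2 at chr10:95383903-95417321.

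Promoter windows of 250 bases before to 50 after the start were on hand for 8 of the 10 genes, all but Il2rb and Socs2. They were searched on both strands for TTCNNNGAA, the spaced palindrome that STAT5 dimers bind, for GGAAA, the core bound by NFAT and some other factors, and for TGANTCA, the AP-1 element. TTCNNNGAA was found in Cish and Il7r only, with 2 matches in Cish, while 8.3% of all 32851 windows held at least 1 match and 0.457% held 2 or more. GGAAA, held by 61.3% of all windows, was found in each of the 8 genes in at least 1 of their windows, and in Cish 3 of its 4 matches overlap those of TTCNNNGAA. TGANTCA, held by 7.81% of all windows, was found in none of the 8, which says only that these letters are not in these windows. The stretches below are the ones with the STAT5 palindrome, in a gene that rose and a gene that fell on stimulation, and the 250 bases before the start of Il2; capitals mark TTCNNNGAA in the Cish and Il7r stretches, and GGAAA or its reverse complement TTTCC in that of Il2. All are given 5′ to 3′ on the strand of the gene, from RefSeq, GRCm38.p6.
Cish, chr9:107296655-107296684, plus strand: agttTTCCTGGAAagTTCTTGGAAatctgt
Il7r, chr15:9529999-9530028, minus strand: gttcaggagcTTCAGGGAAtaccaagatgc
Il2, chr3:37125955-37126204, minus strand: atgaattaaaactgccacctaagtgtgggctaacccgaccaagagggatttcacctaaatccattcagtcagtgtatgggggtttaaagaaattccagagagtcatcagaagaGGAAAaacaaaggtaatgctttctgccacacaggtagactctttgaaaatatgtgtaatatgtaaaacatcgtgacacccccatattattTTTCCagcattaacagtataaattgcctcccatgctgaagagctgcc

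Several features of the libraries bear on every comparison. Each library held 1395 to 1801 cells and 10947009 to 51398728 UMIs (unique molecules counted). Stimulated SDHA-KO cells were the deepest, with medians of 25117 and 25466 UMIs per cell against 13809 and 13745 in stimulated WT cells and 7572 to 9090 in unstimulated cells. The median share of mitochondrial UMIs was 17.9% and 16.2% in stimulated WT libraries and 2.20% to 4.07% in the others. Sdha in CD4 cells was at 26.4 to 26.5 CPM (UMIs per 1000000, after TMM scaling of library sizes) in stimulated SDHA-KO against 73.1 to 74.0 in stimulated WT libraries, and in CD8 cells at 50.4 to 53.3 against 74.9 to 76.2; 3′ tags do not show whether a transcript lacked the floxed exon. The CD8 class, which the authors set by cluster, held many cells with a UMI of Trdc, the γδ T cell receptor constant gene: 38.7% and 39.5% of stimulated SDHA-KO CD8 cells against 2.38% and 3.0% of stimulated WT CD8 cells, each cell thinned to 5000 UMIs (59.1% and 56.1% against 3.67% and 4.92% without thinning). Summed CPM of the NK cell list in stimulated CD8 cells was 176 to 524 in SDHA-KO and 33.1 to 43.2 in WT libraries, and that of the B cell list 57.8 to 306 and 43.4 to 45.5. Of the 12823 distinct barcodes, 23 occurred in more than 1 library.

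WT cells were compared with and without stimulation to see what 48 hours of receptor signaling did to the axis. In CD4 cells all 10 genes passed the test (edgeR's quasi-likelihood test with Benjamini-Hochberg adjustment over all genes, adjusted p under 0.05): Il2, Il2ra, Il2rb, Stat5a, Cish, Socs1 and Socs2 rose, and Il7r, Il2rg and Stat5b fell. Of all 14264 genes tested, 66.3% passed, 36.2% upward and 30.1% downward. In CD8 cells 9 of 10 passed, 7 upward and 2 downward, against 65.7% of the 13095 genes tested (35.5% upward and 30.3% downward). The cytokine gene, the α and β chains and the feedback genes thus shared 1 direction, while the γ chain and the IL-7 receptor had the other.

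Il2 in WT CD4 cells was at 2.57 and 2.70 CPM without stimulation and at 107 and 87.3 CPM with it. Both stimulated libraries lay far above both unstimulated ones, and the difference was 5.20 ± 0.23 (log2 fold change ± SE, edgeR, adjusted p = 4.58e-09). Il2ra, the inducible α chain, went from 27.3 and 30.7 to 318 and 331 CPM, a log2 fold change of 3.48 ± 0.13 (edgeR, adjusted p = 1.32e-09). Cish went from 10.6 and 5.99 to 76.3 and 88.3 CPM, Socs2 from 2.89 and 3.75 to 14.6 and 12.2, and Socs1 from 34 and 27.4 to 55.6 and 75.8. Among these 3 feedback genes the log2 fold changes were 3.32 ± 0.23, 2.01 ± 0.20 and 1.1 ± 0.23, in that order. Il2rb (38.2 and 30.4 to 116 and 137 CPM, 1.89 ± 0.15) and Stat5a (17.8 and 23.2 to 68.0 and 80.3 CPM, 1.85 ± 0.13) rose by similar amounts.

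Il7r showed the largest fall of the set: it was at 462 and 459 CPM in unstimulated WT CD4 cells and at 26.0 and 36.8 CPM after stimulation. No library of one state came near the other state, and the log2 fold change was -3.87 ± 0.18 (edgeR, adjusted p = 8.39e-09). Il2rg fell from 199 and 206 to 95.3 and 94.2 CPM, a log2 fold change of -1.09 ± 0.07. Stat5b, from 174 and 199 to 139 and 149.9 CPM, fell by 0.37 ± 0.12 on the log2 scale. That small call for Stat5b was lost without stimulated WT replicate 1 (-0.35) or unstimulated WT replicate 2 (-0.25), in strictly defined CD4 cells (-0.30) and without composition normalization (-0.15). Its sign turned with limma on mean log values per cell (0.17), a difference in natural-log units and not a log2 fold change.

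CD8 cells started from lower levels of several of these genes. In unstimulated WT CD8 cells Il2ra rested on 3 UMIs over both libraries (0.29 and 0.45 CPM) and Socs2 on 0 UMIs, and Cish was at 2.28 and 0.67 CPM. After stimulation Il2ra was at 356 and 394 CPM, a ratio of 999 between the pooled counts (95% exact counting interval 342 to 4843), and Socs2 was at 14.3 and 15.1 CPM, at least 39.2-fold higher against a floor of 3 UMIs over the group. Cish reached 65.0 and 79.6 CPM (5.70 ± 0.33 on the log2 scale, edgeR, adjusted p = 4.13e-08). Il7r went from 562 and 516 to 55.3 and 58.4 CPM, a log2 fold change of -3.24 ± 0.16, and Il2rg from 202 and 210.4 to 91.0 and 90.0 CPM, a log2 fold change of -1.19 ± 0.07. Stat5b did not pass in CD8 cells (-0.03, edgeR, adjusted p = 0.82).

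Il2 and Socs1 were the least certain of the genes called in stimulated WT CD8 cells. Il2 was at 0 and 2.45 CPM without stimulation and at 33.0 and 4.2 CPM with it, so that the groups did not overlap but the 2 stimulated libraries were far apart. A single cell held 711 of the 814 Il2 UMIs (87.3%) of stimulated WT replicate 1, and without it the level of that library, unscaled, fell from 38.9 to 4.95 CPM. The call for Il2 (3.75 ± 1.51, edgeR, adjusted p = 0.0462) was lost without stimulated WT replicate 1 (1.62), unstimulated WT replicate 1 (2.94) or 2 (11.02), or either unstimulated SDHA-KO library (3.77 each), a fit in which all groups share 1 estimate of the spread. The rise of Socs1 in CD8 cells (0.82 ± 0.25) was lost without stimulated WT replicate 2 (0.62) or unstimulated WT replicate 1 (0.97) or 2 (0.70).

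**Figure D1:**
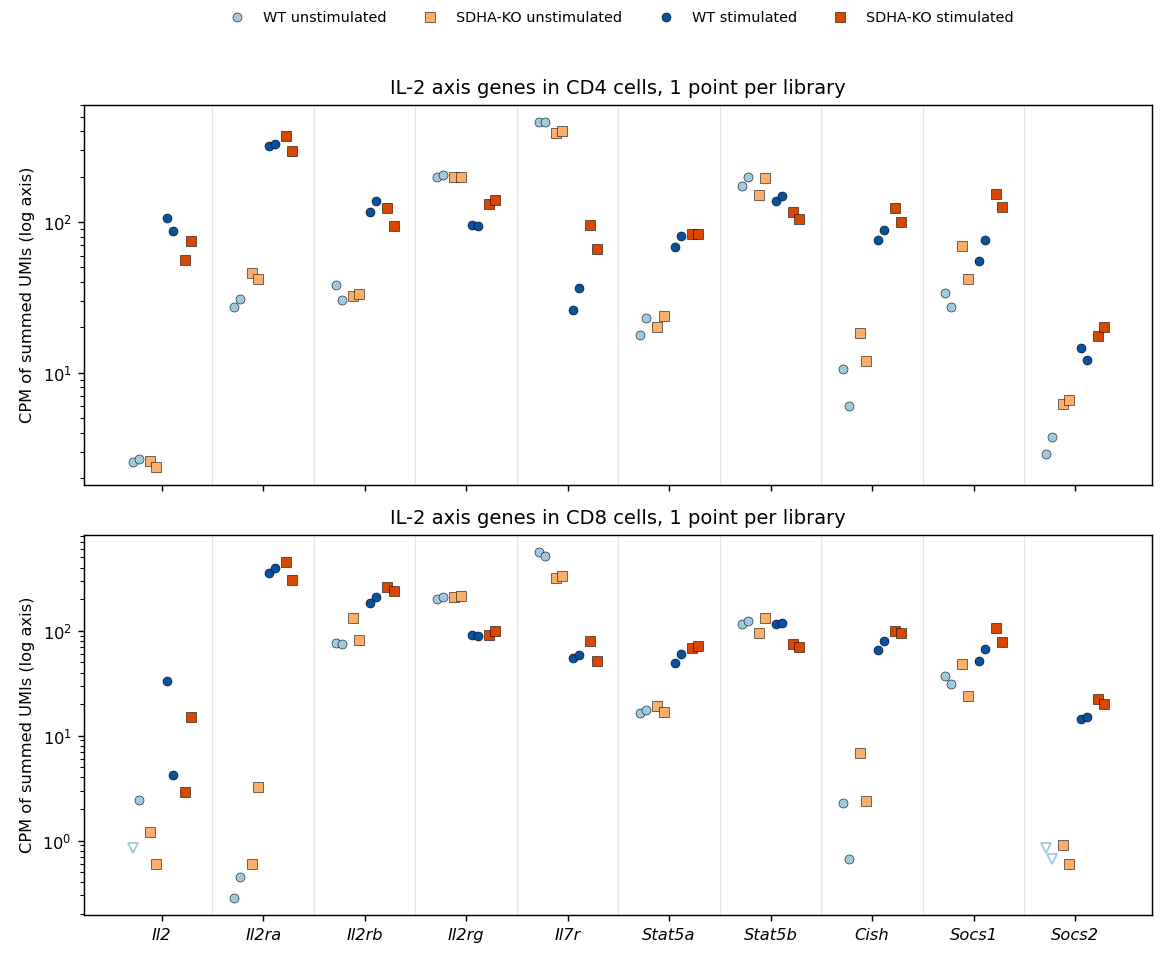
Level of each of the 10 genes in every library (CPM, log axis), in CD4 and CD8 cells of the 4 groups, with 1 point per library. Inverted open triangles are libraries with 0 UMIs, drawn at the floor of 3 UMIs. Il7r falls and Il2ra rises on stimulation in both genotypes, and Il7r in stimulated CD4 cells is at 95.8 and 66.2 CPM in SDHA-KO against 26.0 and 36.8 CPM in WT.

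SDHA-KO cells were compared in the same way, with their own unstimulated libraries as the control. The same directions were seen: 10 of 10 genes passed in CD4 cells (7 upward and 3 downward, against 69.8% of genes tested, 36.6% and 33.2% by direction) and 9 of 10 in CD8 cells (6 upward and 3 downward, against 68.2%, 37.2% and 30.9% by direction). Il2ra in CD4 cells went from 45.7 and 41.6 to 374 and 297 CPM, a log2 fold change of 2.94 ± 0.12. Il7r went from 393 and 399.7 to 95.8 and 66.2 CPM, a log2 fold change of -2.29 ± 0.17. In SDHA-KO CD8 cells Il2 was the gene that did not pass, at 1.2 and 0.59 CPM without and 2.91 and 14.9 CPM with stimulation (3.25 ± 2.00, edgeR, adjusted p = 0.17).

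Whether the genotypes responded by different amounts was tested as an interaction of genotype and state, a fit of all 8 libraries of a class. It passed for 3 genes in CD4 cells, against 21.4% of genes tested, and for 2 in CD8 cells, against 23.8%. Il7r fell less in SDHA-KO than in WT cells: the difference was 1.58 ± 0.23 in CD4 cells (edgeR, adjusted p = 0.00106) and 0.94 ± 0.21 in CD8 cells (edgeR, adjusted p = 0.00947). Il2rg also fell less in SDHA-KO CD4 cells, by 0.53 ± 0.10 (edgeR, adjusted p = 0.00348). Il2ra rose less in SDHA-KO CD4 cells, with a difference of -0.54 ± 0.17 (edgeR, adjusted p = 0.0427), and Stat5b in CD8 cells differed by -0.62 ± 0.17 (edgeR, adjusted p = 0.0192).

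Of these, Il7r and Il2rg in CD4 cells kept the call under every alternative run on the class. The Il2ra difference was lost when cells with a Foxp3 UMI were left out (-0.16), in strictly defined CD4 cells (-0.60), in cells under 10% mitochondrial UMIs (-0.53), with nuclear genes only (-0.49), with limma on mean log values per cell (-0.02 in natural-log units) and on leaving out any 1 of 7 of the libraries (-0.34 to -0.63). In CD8 cells the Il7r difference was lost without unstimulated SDHA-KO replicate 2 (0.94) or unstimulated WT replicate 1 (0.86), and the Stat5b difference without unstimulated SDHA-KO replicate 2 (-0.39) or unstimulated WT replicate 1 (-0.59) or 2 (-0.68), in strictly defined CD8 cells (-0.43) and in cells under 10% mitochondrial UMIs (-0.51).

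Stimulated SDHA-KO CD4 cells were then compared with stimulated WT CD4 cells, the contrast of genotypes in activated cells. SDHA-KO cells had more Il7r, Socs1, Il2rg, Socs2 and Cish and less Il2 and Stat5b, while Il2ra, Il2rb and Stat5a did not pass. Thus 7 of the 10 genes passed, 5 upward and 2 downward, against 43.2% of genes tested (22.7% upward and 20.5% downward). The median log2 fold change of the 10 was 0.30, beside -0.0009 over all genes tested. A level summed over a class cannot separate more cells with a transcript from more transcripts per cell. The authors' clusters also differed in size between the genotypes: their central memory (Tcm) clusters held 236 of 1137 and 223 of 1284 CD4 cells in SDHA-KO but 540 of 859 and 594 of 967 in WT libraries, and their effector memory (Tem) clusters held the rest. The part of this in the class differences was not tested.

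Il7r was at 95.8 and 66.2 CPM in the SDHA-KO and 26.0 and 36.8 CPM in the WT libraries. Both SDHA-KO libraries lay above both WT libraries, and the log2 fold change was 1.36 ± 0.17 (edgeR, adjusted p = 0.000103). Socs1, a pseudosubstrate inhibitor of JAK kinases, was at 154 and 126 CPM in SDHA-KO and 55.6 and 75.8 CPM in WT libraries. The groups again did not overlap, and the log2 fold change was 1.09 ± 0.19 (edgeR, adjusted p = 0.00101). Il2rg was at 131 and 139 CPM against 95.3 and 94.2 CPM, with close replicates and a log2 fold change of 0.51 ± 0.07 (edgeR, adjusted p = 0.000148). These 3 genes kept the call in every alternative run on the class, and in cells under 10% mitochondrial UMIs, which left 336 and 396 WT and 988 and 1156 SDHA-KO CD4 cells, their log2 fold changes were 1.55, 0.84 and 0.63. In the Tcm clusters fitted together, a grouping added after seeing the data, Il7r (1.84) and Il2rg (0.60) passed and Socs1 did not (0.50, edgeR, adjusted p = 0.0503), while in the Tem clusters all 3 passed (1.55, 0.62 and 0.84). No alternative was run on these joint fits.

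Il2 was at 56.4 and 74.7 CPM in the SDHA-KO and 107 and 87.3 CPM in the WT libraries. The libraries did not overlap, and the log2 fold change was -0.56 ± 0.13 (edgeR, adjusted p = 0.00408), but the call was lost without stimulated WT replicate 1 (-0.40). The Il2 UMIs were concentrated in few cells: the top 1% of CD4 cells held 47.3% and 33.2% of them in SDHA-KO and 42.7% and 51.7% in WT libraries. Leaving out the single highest cell of each library gave unscaled levels of 57.6 and 76.7 CPM in SDHA-KO against 101 and 78.9 in WT libraries. The share of CD4 cells with an Il2 UMI, each cell thinned to 5000 UMIs, was 8.65% (95% exact binomial interval 7.03 to 10.5) and 13.8% (11.9 to 15.9) in SDHA-KO and 17% (14.5 to 19.7) and 11.9% (9.94 to 14.2) in WT libraries, so that the shares overlapped between genotypes. Without thinning the shares were 13.8% and 23.5% against 30.8% and 25.5%, and in unstimulated CD4 cells, which make little IL-2, the thinned share was 0.675% to 0.959%.

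The other calls in stimulated CD4 cells were smaller. Cish, whose product competes for STAT5 docking sites on cytokine receptors, was at 124 and 99.8 CPM in SDHA-KO and 76.3 and 88.3 CPM in WT libraries (0.44 ± 0.16, edgeR, adjusted p = 0.0403). Socs2 was at 17.6 and 20.2 CPM against 14.6 and 12.2 CPM (0.50 ± 0.13, edgeR, adjusted p = 0.00806), and Stat5b at 116 and 105 CPM against 139 and 149.9 CPM (-0.38 ± 0.11, edgeR, adjusted p = 0.0187). For each of them the genotypes did not overlap. All 3 calls were lost in cells under 10% mitochondrial UMIs, where the log2 fold changes were 0.20 for Cish, 0.23 for Socs2 and -0.21 for Stat5b. With DESeq2 Cish (0.45, adjusted p = 0.32) and Socs2 (0.51, adjusted p = 0.0585) did not pass. Cish was also lost without stimulated SDHA-KO replicate 1 (0.29) or stimulated WT replicate 1 (0.35) or 2 (0.56), Socs2 without stimulated WT replicate 2 (0.39), and Stat5b without stimulated SDHA-KO replicate 2 (-0.29) or stimulated WT replicate 2 (-0.31).

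The α chain did not differ detectably between the genotypes in stimulated CD4 cells. Il2ra was at 374 and 297 CPM in SDHA-KO and 318 and 331 CPM in WT libraries, with the WT values inside the SDHA-KO range (0.05 ± 0.10, edgeR, adjusted p = 0.75). Il2rb was at 124 and 94.1 CPM against 116 and 137 CPM (-0.22 ± 0.13, edgeR, adjusted p = 0.19), also overlapping. Without stimulated SDHA-KO replicate 1 the Il2rb difference was called (-0.41). Stat5a was at 83.2 and 83.0 CPM against 68.0 and 80.3 CPM (0.16 ± 0.10, edgeR, adjusted p = 0.23).

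The same contrast in CD8 cells gave a shorter list. Stat5b was lower in SDHA-KO cells, Stat5a, Cish, Socs1 and Socs2 were higher, and neither Il2 nor any of the 4 receptor genes passed. That is 5 of 10 genes, 4 upward and 1 downward, against 50.4% of genes tested (26.8% upward and 23.5% downward), with a median log2 fold change of 0.28 beside -0.0096 over all genes. The 2 STAT5 genes, neighbors on the same chromosome, had opposite signs. Here too the clusters differed in size, with Tem clusters holding 286 of 511 and 232 of 396 CD8 cells in SDHA-KO against 196 of 844 and 241 of 834 in WT libraries, and the part of this in the class differences was not tested.

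Stat5b was at 74.0 and 69.9 CPM in SDHA-KO and 116 and 118 CPM in WT CD8 libraries. Both SDHA-KO values lay well below both WT values, and the log2 fold change was -0.70 ± 0.11 (edgeR, adjusted p = 0.000254). The call held in every alternative run on the class, including CD8 cells defined by their own Cd8a or Cd8b1 UMI without Cd4 or Trdc UMIs (-0.49) and cells under 10% mitochondrial UMIs (-0.59). The share of CD8 cells with a Stat5b UMI, thinned to 5000 UMIs, was 35.3% and 33.1% against 50.9% and 52.4%, while without thinning it was 82.6% and 80.6% against 82.0% and 85.3%.

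Socs1 in CD8 cells was at 107 and 78.1 CPM in SDHA-KO and 51.9 and 67.5 CPM in WT libraries (0.63 ± 0.20, edgeR, adjusted p = 0.0197). Cish was at 99.2 and 95.6 CPM against 65.0 and 79.6 CPM (0.43 ± 0.14, edgeR, adjusted p = 0.0221), and Socs2 at 22.5 and 19.9 CPM against 14.3 and 15.1 CPM (0.53 ± 0.11, edgeR, adjusted p = 0.00314). Every SDHA-KO library of these 3 genes lay above every WT library. All 3 calls were lost in cells under 10% mitochondrial UMIs (0.39, 0.24 and 0.21), which left 332 and 254 SDHA-KO and 205 and 244 WT cells, and Socs2 in the strictly defined CD8 cells was at a log2 fold change of -0.04. Without stimulated WT replicate 1 the calls for Socs1 (0.44) and Cish (0.28) were lost, and without stimulated SDHA-KO replicate 1 they were lost as well (0.38 and 0.39). With DESeq2 Cish (0.44) and Socs2 (0.53) did not pass.

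**Figure D2:**
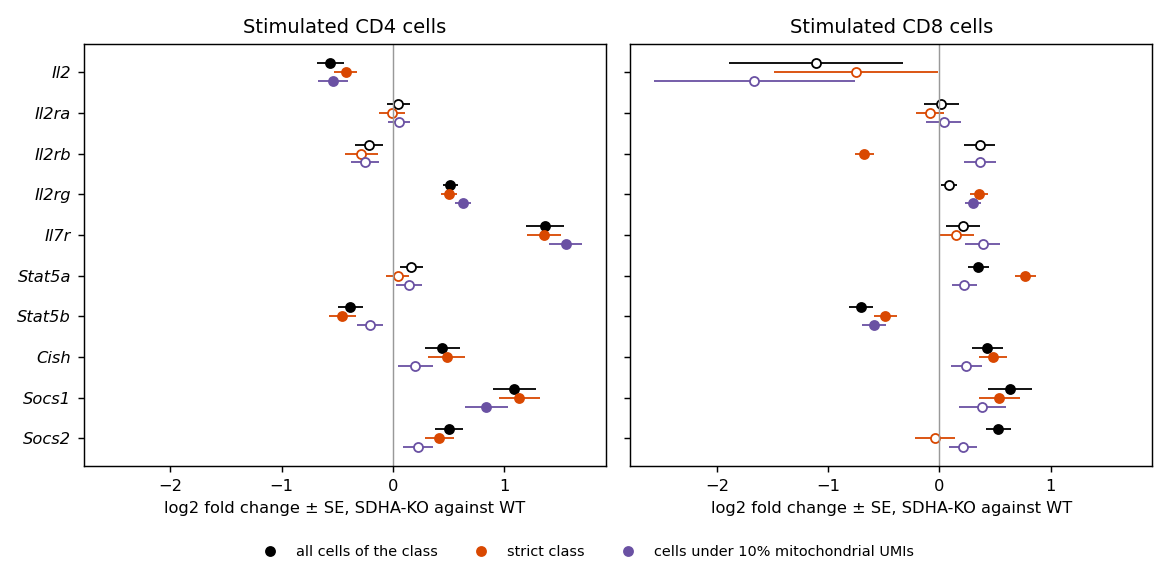
Log2 fold change of stimulated SDHA-KO against WT libraries (points, with bars of 1 SE) for the 10 genes in CD4 and CD8 cells, in all cells of the class, in cells defined by their own Cd4, Cd8a or Cd8b1 UMI, and in cells under 10% mitochondrial UMIs. Filled points passed edgeR's test. Il7r, Socs1 and Il2rg in CD4 cells and Stat5b in CD8 cells pass in all 3 sets, while Il2rb in CD8 cells turns from 0.36 to -0.67 in the strictly defined cells.

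The receptor genes in CD8 cells depended on which cells were counted. Il2rb was at 264 and 242 CPM in SDHA-KO and 185 and 209 CPM in WT libraries (0.36 ± 0.14, edgeR, adjusted p = 0.051). In CD8 cells defined by their own Cd8a or Cd8b1 UMI without a Cd4 or Trdc UMI, which left 169 and 147 SDHA-KO and 736 and 709 WT cells, the log2 fold change of Il2rb was -0.67 and passed the test. Il2rg passed there too (0.36), as it did in cells under 10% mitochondrial UMIs (0.30), and Stat5a was at 0.77 and passed. The strictly defined cells were set on UMIs without thinning. Median depth was 30662 and 29912 UMIs in stimulated SDHA-KO and 13152 and 13265 in stimulated WT CD8 cells. Membership can thus depend on depth, and the part of this was not tested. In all CD8 cells Stat5a was at 68.7 and 71.9 CPM against 49.8 and 60.4 CPM (0.35 ± 0.10, edgeR, adjusted p = 0.0104), a call lost in cells under 10% mitochondrial UMIs (0.22), without stimulated SDHA-KO replicate 2 (0.30) and without stimulated WT replicate 1 (0.20).

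Splitting the stimulated CD8 class by a Trdc UMI showed the 2 sets of cells apart, a split chosen after the data were seen. Cells with a Trdc UMI numbered 302 and 222 in SDHA-KO and 31 and 41 in WT libraries. In them Il2rb was at 384 and 348 CPM, here with no TMM scaling, in SDHA-KO and 313 and 363 in WT libraries, while in cells without a Trdc UMI it was at 156 and 149 against 213 and 233. Il2rb was thus higher in Trdc-positive cells of every library, and among Trdc-negative cells both SDHA-KO libraries lay below both WT libraries. Il2rg in Trdc-negative cells was at 129 and 135 CPM in SDHA-KO against 108 and 104 in WT libraries, and in Trdc-positive cells at 88.3 and 95.2 against 97.9 and 94.9. Stat5a in Trdc-negative cells was at 108 and 103 against 59.9 and 68.9 CPM, and Stat5b at 103 and 89.7 against 139 and 136. This split too used UMIs without thinning, so a Trdc UMI was easier to miss in the shallower WT cells.

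**Figure D3:**
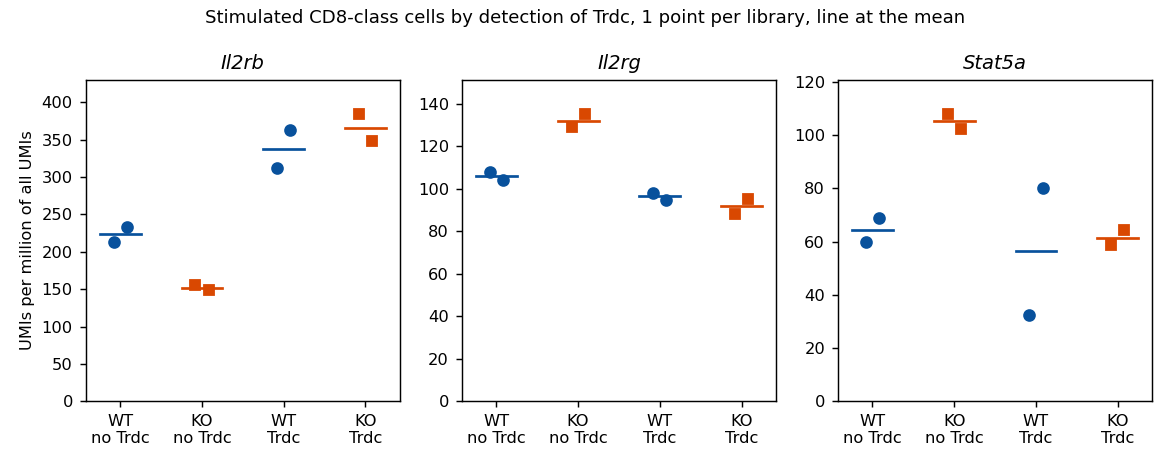
Il2rb, Il2rg and Stat5a in stimulated CD8-class cells with and without a Trdc UMI (CPM with no TMM scaling, 1 point per library). Il2rb is higher in cells with a Trdc UMI in all 4 libraries, and in cells without one it is at 156 and 149 in SDHA-KO against 213 and 233 in WT.

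Il2 and Il7r did not pass in all stimulated CD8 cells. Il2 was at 2.91 and 14.9 CPM in SDHA-KO and 33.0 and 4.2 CPM in WT libraries, with neither genotype above the other (-1.11 ± 0.78, edgeR, adjusted p = 0.26). Its sign turned without stimulated WT replicate 1, the library with the single high cell (1.04), and it was called without stimulated SDHA-KO replicate 2 (-2.68) or stimulated WT replicate 2 (-1.95). In stimulated SDHA-KO replicate 2 the highest cell, with 6 Cd4, 0 Cd8a and 1 Cd8b1 UMIs, held 48 of the 241 Il2 UMIs (19.9%). Without that cell the library fell from 16.5 to 13.3 CPM, unscaled. In the CD8 Tcm clusters fitted together, added after seeing the data, Il2 was lower in SDHA-KO cells (-1.64 ± 0.35, edgeR, adjusted p = 0.0138), and in the CD8 Tem clusters it did not pass (-1.64 ± 1.13, edgeR, adjusted p = 0.30). Those Tcm clusters held 225 and 164 SDHA-KO and 648 and 593 WT cells, and no alternative was run on these joint fits. Il7r was at 79.6 and 51.4 CPM against 55.3 and 58.4 CPM (0.21 ± 0.15, edgeR, adjusted p = 0.27) and was called without stimulated SDHA-KO replicate 2 (0.47). Il2ra was at 453 and 306 CPM against 356 and 394 CPM (0.02 ± 0.16, edgeR, adjusted p = 0.93).

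Thinned to equal depth, the share of cells with a UMI did not overlap between stimulated genotypes for 6 of the 10 genes in CD4 cells and 5 of 10 in CD8 cells, beside 70.2% and 67.8% of all genes. In CD4 cells Il2rg, Il7r, Cish, Socs1 and Socs2 were found in more SDHA-KO cells and Stat5b in fewer. Il7r was seen in 33.0% and 24.5% of SDHA-KO and 15.8% and 17.8% of WT CD4 cells, and without thinning in 63.9% and 52.3% against 36.2% and 41.1%. Socs1 was seen in 51% and 42.3% against 24.0% and 27.9% of CD4 cells, and without thinning in 80.7% and 75.1% against 54.8% and 61.4%. Il2ra gave 67.3% to 74.8% in stimulated CD4 cells of either genotype and 0.222% to 0.571% in unstimulated CD8 cells, which hold almost none of its transcript.

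Unstimulated SDHA-KO and WT cells were compared to see whether the axis differed before stimulation. Summed over the class, 0 of 10 genes passed in CD4 cells and 0 of 10 in CD8 cells by edgeR, against 1.1% and 0.947% of genes tested. At an unadjusted p under 0.05 there were 4 genes in each class, while DESeq2 called 1 in each (Il2ra in CD4 and Il7r in CD8 cells) and limma called 0 in CD4 and 1 in CD8 cells (Il7r). Within the authors' Subtypes, however, Il7r was lower in SDHA-KO naive cells of both classes.

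Il7r in unstimulated CD8 cells was at 320 and 331 CPM in SDHA-KO and 562 and 516 CPM in WT libraries, with no overlap (-0.73 ± 0.15, edgeR, adjusted p = 0.053). It passed under 10 of the alternatives, among them the strictly defined CD8 cells, cells under 10% mitochondrial UMIs and cells without a Foxp3 UMI. In CD4 cells Il7r was at 393 and 399.7 CPM against 462 and 459 CPM (-0.22 ± 0.16, edgeR, adjusted p = 0.55). Il2ra in CD4 cells was at 45.7 and 41.6 CPM in SDHA-KO and 27.3 and 30.7 CPM in WT libraries (0.59 ± 0.14, edgeR, adjusted p = 0.07), and Socs2 at 6.19 and 6.61 against 2.89 and 3.75 CPM (0.94 ± 0.23, edgeR, adjusted p = 0.081). Both genes were higher in each SDHA-KO library than in each WT library without passing the test. In CD8 cells Il2ra rested on 13 UMIs in SDHA-KO and 3 in WT libraries, and 11 of the 13 came from unstimulated SDHA-KO replicate 2, 8 of them from 1 cell, so that no direction was read from them.

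The Subtypes are the authors' naive, central memory (Tcm), effector memory (Tem) and Treg clusters of each class, numbered as they gave them and named from genes that included Il7r. The genotypes are compared within a Subtype, and levels between Subtypes are left as description. The clusters were set from expression in cells of both genotypes together, so membership can itself depend on the genotype. The part of this in the differences within a Subtype was not tested. Of the Subtypes with at least 20 cells in all 4 libraries of a state, 6 in CD4 and 5 in CD8 unstimulated cells were fitted. Over them 12 of 45 tests of the 10 genes passed in CD4 cells (8 upward and 4 downward), against 2.92% of all gene by Subtype tests (1.02% upward and 1.9% downward). In CD8 cells 4 of 28 passed (all downward), against 1.54% (0.322% upward and 1.22% downward).

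Il7r was lower in SDHA-KO cells in all 4 CD4 naive and all 4 CD8 naive Subtypes fitted. In CD8 Naive1 it was at 216 and 213 CPM in SDHA-KO against 440.1 and 413 CPM in WT libraries (-0.99 ± 0.10, edgeR, adjusted p = 5.01e-05), and in CD8 Naive2 at 157 and 135 against 278 and 287 CPM (-0.95 ± 0.13, edgeR, adjusted p = 1.48e-10). In CD4 Naive2 it was at 184 and 227 CPM against 356 and 298 CPM (-0.68 ± 0.10, edgeR, adjusted p = 0.000152). In these 3 Subtypes the call was kept on leaving out any 1 library. The other naive Subtypes gave -0.58 in CD4 Naive1, -0.37 in CD4 Naive3, -0.53 in CD4 Naive4, -0.59 in CD8 Naive3 and -0.70 in CD8 Naive4. Each of these calls was lost without unstimulated WT replicate 1, with values of -0.28 in CD4 Naive1, -0.42 in CD4 Naive3, -0.64 in CD4 Naive4, -0.53 in CD8 Naive3 and -0.72 in CD8 Naive4. Those in CD4 Naive3 (-0.30), CD4 Naive4 (-0.42) and CD8 Naive4 (-0.69) were also lost without unstimulated WT replicate 2, and that in CD8 Naive4 without unstimulated SDHA-KO replicate 1 (-0.55). With DESeq2 the call in CD4 Naive1 was lost (-0.59), as was that in CD4 Naive3 without composition normalization (-0.32).

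The unstimulated memory and regulatory Subtypes of CD4 cells had the opposite sign for Il7r or moved in other genes. In CD4 Tem1 Il7r was at 444 and 582 CPM in SDHA-KO against 326 and 348 CPM in WT libraries (0.61 ± 0.13, edgeR, adjusted p = 0.00133), and Il2rg (0.62 ± 0.14), Cish (2.01 ± 0.58) and Il2ra (1.53 ± 0.45) were higher as well. The Il7r call was lost without unstimulated SDHA-KO replicate 2 (0.39), that of Il2rg without unstimulated WT replicate 1 (0.55) or SDHA-KO replicate 1 (0.54), that of Cish without unstimulated WT replicate 2 (1.2) or SDHA-KO replicate 1 (1.65) or 2 (2.31), and that of Il2ra on leaving out any of the 4 libraries (1.36 to 1.66). With DESeq2 Il2rg (0.62), Cish (2.04) and Il2ra (1.53) did not pass in Tem1. Il2ra also passed in CD4 Naive1 (1.60 ± 0.44, lost on leaving out any of the 4 libraries, at 1.3 to 2.04) and in Treg, the Foxp3-expressing cells that carry CD25 at rest. In Treg it was at 531 and 479 CPM in SDHA-KO against 244 and 356 CPM in WT libraries (0.76 ± 0.15, edgeR, adjusted p = 0.00676), a call lost without unstimulated WT replicate 1 (0.50) or unstimulated SDHA-KO replicate 2 (0.84). Socs1 was higher in CD4 Naive1 (1.08 ± 0.19) and Naive2 (1.3 ± 0.21) and kept both calls on leaving out any 1 library. Cd4 itself, a marker of the class, was at 598 to 666 CPM in unstimulated SDHA-KO and 168 to 169 CPM in WT CD4 cells, and its part in these differences was not tested.

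**Figure D4:**
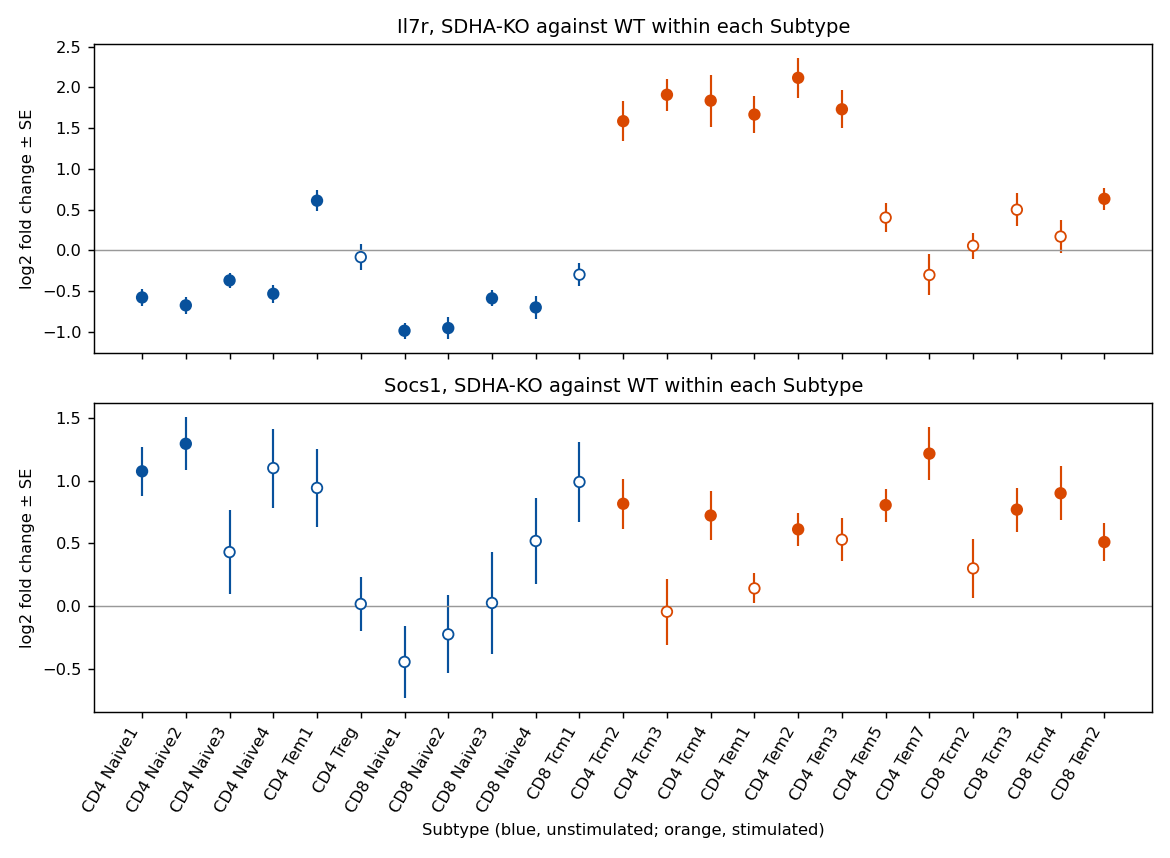
Log2 fold change of SDHA-KO against WT (points, with bars of 1 SE) for Il7r and Socs1 in each Subtype fitted, unstimulated and stimulated. Filled points passed edgeR's test. Il7r is below 0 in all 8 unstimulated naive Subtypes and between 1.58 and 2.12 in 6 of 8 stimulated CD4 Subtypes.

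Among stimulated cells 8 CD4 and 4 CD8 Subtypes were fitted, to see whether the class differences held within them. In CD4 Subtypes 25 of 79 tests passed (19 upward and 6 downward), against 20.3% of all gene by Subtype tests (9.46% upward and 10.9% downward). In CD8 Subtypes 11 of 37 passed (7 upward and 4 downward), against 20.8% (10.6% upward and 10.1% downward). Il7r was higher in SDHA-KO cells in 6 of 8 CD4 Subtypes, by 1.58 to 2.12 on the log2 scale. In CD4 Tem2, for example, it was at 113 and 69.0 CPM in SDHA-KO against 17.9 and 23.2 CPM in WT libraries (2.12 ± 0.24, edgeR, adjusted p = 0.000539), while it was at 0.40 in Tem5 and -0.30 in Tem7 without passing. Il2rg was higher in 6 of 8 CD4 Subtypes and Socs1 in 5 of 8. The other class calls in CD4 cells held less well. Cish passed in 0 of 8 CD4 Subtypes (median log2 fold change 0.14, 6 positive and 2 negative). Socs2 passed in 0 of 7 (median -0.39, 3 positive and 4 negative). Stat5b was negative in all 8 and passed in 1. In CD8 cells Cish and Socs2 each passed in 0 of 4 Subtypes. The largest rise of Socs1 was in Tem7, at 270.2 and 274 CPM against 102 and 137 CPM (1.22 ± 0.21, edgeR, adjusted p = 0.0129). The Il7r call in Tcm2 was lost without stimulated SDHA-KO replicate 1 (0.86), and the other 5 Il7r calls were kept on leaving out any 1 library. Of the Il2rg calls, that in Tcm4 was lost without stimulated WT replicate 1 (0.50) or SDHA-KO replicate 2 (0.52) and that in Tem2 without stimulated WT replicate 2 (0.47). Of the Socs1 calls, those in Tcm2 (0.70), Tcm4 (0.55) and Tem2 (0.46) were lost without stimulated WT replicate 1, and those in Tcm2 (0.88) and Tcm4 (0.53) without stimulated SDHA-KO replicate 1. With DESeq2 Socs1 did not pass in Tcm2 (0.84) or Tcm4 (0.73), and over all Subtypes of both states the calls numbered 36 with DESeq2 and 52 with edgeR.

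In stimulated CD4 Subtypes Il2 was called in 3, downward in 2 and upward in 1. It was lower in SDHA-KO cells in Tcm4 (-1.14 ± 0.28, edgeR, adjusted p = 0.0246) and Tem3 (-0.75 ± 0.19, edgeR, adjusted p = 0.0289) and higher in Tem5 (1.51 ± 0.31, edgeR, adjusted p = 0.00675). The Tcm4 call was lost without stimulated SDHA-KO replicate 1 (-0.69) and the Tem3 call without stimulated WT replicate 1 (-0.74) or without composition normalization (-0.54). With DESeq2 none of the 3 passed (-1.15 in Tcm4, -0.79 in Tem3 and 1.43 in Tem5). Fitted over families of Subtypes, a grouping added after seeing the data, Il2 was lower in SDHA-KO cells in both the CD4 Tcm (-0.82 ± 0.15, edgeR, adjusted p = 0.00504) and the CD4 Tem family (-0.52 ± 0.15, edgeR, adjusted p = 0.0355). No alternative was run on these family fits. In Tem5, Il2ra (-0.36 ± 0.10), Il2rb (-0.48 ± 0.10) and Stat5b (-0.45 ± 0.10) were lower and Il2rg (0.69 ± 0.10) and Socs1 (0.81 ± 0.13) higher. There the Il2ra call was lost without stimulated WT replicate 1 (-0.31) or SDHA-KO replicate 2 (-0.26) and the Il2rb call without stimulated SDHA-KO replicate 2 (-0.42), and without composition normalization Il2ra (-0.17), Il2rb (-0.29) and Stat5b (-0.27) all lost the call. Il2rb was also lower in Tem1 (-0.74 ± 0.10, edgeR, adjusted p = 0.000303). In CD8 cells Stat5b was lower in 4 of 4 Subtypes, with log2 fold changes of -0.53 to -0.91, and Socs1 was higher in 3 of 4. Il2rb was higher in CD8 Tcm3 (0.49 ± 0.11) and Tem2 (0.90 ± 0.10), Il7r in Tem2 (0.63 ± 0.14) and Stat5a in Tcm2 (0.81 ± 0.21). Among these CD8 calls, Stat5b and Il2rb in Tem2 were kept on leaving out any 1 library. Stimulated WT replicate 1 was needed for all the others, with values without it of -0.57, -0.70 and -0.87 for Stat5b in Tcm2, Tcm3 and Tcm4, 0.81, 0.76 and 0.33 for Socs1 in Tcm3, Tcm4 and Tem2, 0.47 for Il2rb in Tcm3, 0.47 for Il7r in Tem2 and 0.66 for Stat5a in Tcm2. Other single libraries mattered too, the furthest moves being Stat5b in Tcm2 without stimulated SDHA-KO replicate 2 (-0.32) and Stat5a in Tcm2 without stimulated SDHA-KO replicate 1 (0.44). With DESeq2 Stat5b in Tcm2 (-0.56) and Tcm4 (-0.81), Socs1 in Tcm3 (0.77) and Tcm4 (0.89) and Stat5a in Tcm2 (0.77) did not pass. Il2rb was also called higher in the CD8 Tcm and CD8 Tem families, on which no alternative was run. All these CD8 fits kept cells with a Trdc UMI. In the strictly defined CD8 class Il2rb was called lower in SDHA-KO. In Trdc-negative CD8 cells it was at 156 and 149 CPM in SDHA-KO against 213 and 233 in WT libraries, with no TMM scaling.

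CD8 cells were compared with CD4 cells of the same library, and the genotypes by the difference between these contrasts. Stimulated CD8 cells of both genotypes had less Il2 and more Il2rb than CD4 cells, but Il7r was higher in CD8 cells of WT and lower in CD8 cells of SDHA-KO libraries. In WT 6 of 10 genes passed, against 23.5% of genes tested, and in SDHA-KO 8 of 10, against 47.3%. Il2 in CD8 minus CD4 cells was -2.58 ± 0.51 in WT (edgeR, adjusted p = 0.00873) and -2.98 ± 0.59 in SDHA-KO (edgeR, adjusted p = 0.00386), and in WT cells under 10% mitochondrial UMIs it no longer passed (-1.91). Il2ra was higher in CD8 cells of both genotypes by small amounts (0.26 ± 0.06 in WT and 0.21 ± 0.06 in SDHA-KO), calls lost without stimulated WT replicate 1 (0.31) or 2 (0.21) and without stimulated SDHA-KO replicate 1 (0.09), and in both genotypes in cells under 10% mitochondrial UMIs (0.20 and 0.15).

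The SDHA-KO effect differed between the classes for 5 of the 10 genes in stimulated cells, against 22.4% of genes tested. Il7r gave 0.92 ± 0.09 in WT and -0.27 ± 0.09 in SDHA-KO (not called with DESeq2, at -0.26, in cells without a Foxp3 UMI, at -0.25, or without stimulated SDHA-KO replicate 1, at -0.33, or 2, at -0.23), a difference of -1.19 ± 0.13 (edgeR, adjusted p = 0.00115). Socs1 gave a difference of -0.48 ± 0.08 (edgeR, adjusted p = 0.00427), and like Il7r it kept the call in every alternative run on the class. Il2rb gave 0.69 ± 0.06 in WT and 1.27 ± 0.07 in SDHA-KO, a difference of 0.57 ± 0.09 (edgeR, adjusted p = 0.00437), which was -0.37 in the strictly defined cells. Il2rg (-0.44 ± 0.06) and Stat5b (-0.34 ± 0.07) also differed between the classes, and in the strictly defined cells their differences, -0.13 and -0.02, did not pass. The Stat5b difference was also lost without stimulated WT replicate 1 (-0.30) and with DESeq2 (-0.32).

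Unstimulated CD8 cells had less Il2ra, Cish, Socs2 and Stat5b and more Il2rb than CD4 cells of the same library, in both genotypes. In WT 6 of 10 genes passed, against 22.3% of genes tested, and in SDHA-KO 7 of 10, against 22.1%. Il2rb gave 1.18 ± 0.12 in WT (edgeR, adjusted p = 3e-09) and 1.76 ± 0.11 in SDHA-KO (edgeR, adjusted p = 4.09e-14). These values include cells marked by the γδ T cell list. Its summed CPM in unstimulated CD8 cells was 190 to 254 in SDHA-KO against 31.7 to 34.3 in WT libraries. The part of these cells in these contrasts was not tested. The Socs2 call in SDHA-KO was lost in cells without a Foxp3 UMI (-1.62 against -3.00) and with DESeq2 (-3.05). The SDHA-KO effect differed between the classes for 2 genes, against 0.551% of genes tested. They were Il7r, at -0.47 ± 0.07 (edgeR, adjusted p = 0.000174) and called in every alternative run on the class, and Socs1, at -0.74 ± 0.16 (edgeR, adjusted p = 0.0178), lost without unstimulated WT replicate 2 (-0.72) or composition normalization (-0.66).

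Stimulated cells with an Il2 UMI were compared with cells of the same library without one, each cell thinned to 5000 UMIs, to describe the cells that held the cytokine transcript. In CD4 cells there were 92 and 165 with an Il2 UMI in SDHA-KO and 143 and 113 in WT libraries. They had less Il2rb in both genotypes and, in SDHA-KO, less Socs1 and Socs2. Of the other 9 genes 1 passed in WT, against 2.08% of genes tested, and 3 in SDHA-KO, against 2.92%. A UMI count of 0 does not show that a cell made no Il2.

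Il2rb in WT CD4 cells was at 155 and 199 CPM without and at 85.5 and 113 CPM with an Il2 UMI, and in SDHA-KO at 167 and 124 against 95.5 and 66.5 CPM. It was lower in the Il2-positive cells of 4 of 4 libraries (-0.83 ± 0.16 in WT, edgeR, adjusted p = 0.000169, and -0.85 ± 0.17 in SDHA-KO, edgeR, adjusted p = 0.000249). The WT call was lost without stimulated WT replicate 1 (-0.85) and with DESeq2 (-0.83), and the SDHA-KO call without stimulated SDHA-KO replicate 2 (-0.83). Socs1 in SDHA-KO was at 202 and 168 CPM without and 152 and 90.3 CPM with an Il2 UMI (-0.66 ± 0.15, edgeR, adjusted p = 0.00255), and Socs2 at 24.4 and 29.1 against 14.5 and 10.0 CPM (-1.20 ± 0.36, edgeR, adjusted p = 0.0432). The Socs1 call was lost without stimulated SDHA-KO replicate 2 (-0.44), with DESeq2 (-0.63) and in cells with at least 2 Il2 UMIs (-0.52), and the Socs2 call in the latter (-1.06) and without stimulated SDHA-KO replicate 1 (-1.54) or 2 (-0.77). The difference between the genotypes passed for 0 of 9 genes by edgeR and DESeq2, with 0 at an unadjusted p under 0.05, beside 0.105% of genes tested.

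Fewer CD8 cells held an Il2 UMI: 8 and 12 in SDHA-KO and 26 and 13 in WT libraries. In them 0 of 9 genes passed in WT by edgeR and DESeq2 (1 at an unadjusted p under 0.05), against 0.0438% of genes tested, and 1 in SDHA-KO, against 0.668%. The difference between the genotypes passed for 0 of 9 genes by edgeR and DESeq2 (0 at an unadjusted p under 0.05), against 0.208% of genes tested. The gene that passed in SDHA-KO was Il2rb, at -1.31 ± 0.36 (edgeR, adjusted p = 0.0437), lost without stimulated SDHA-KO replicate 2 (-0.62). In stimulated SDHA-KO CD8 cells with a Trdc UMI, Il2rb was at 384 and 348 CPM and Il2 at 1.87 and 10.4, with no TMM scaling. In those without a Trdc UMI, Il2rb was at 156 and 149 CPM and Il2 at 5.59 and 25.6. The part of this in the Il2rb call was not tested.

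**Figure D5:**
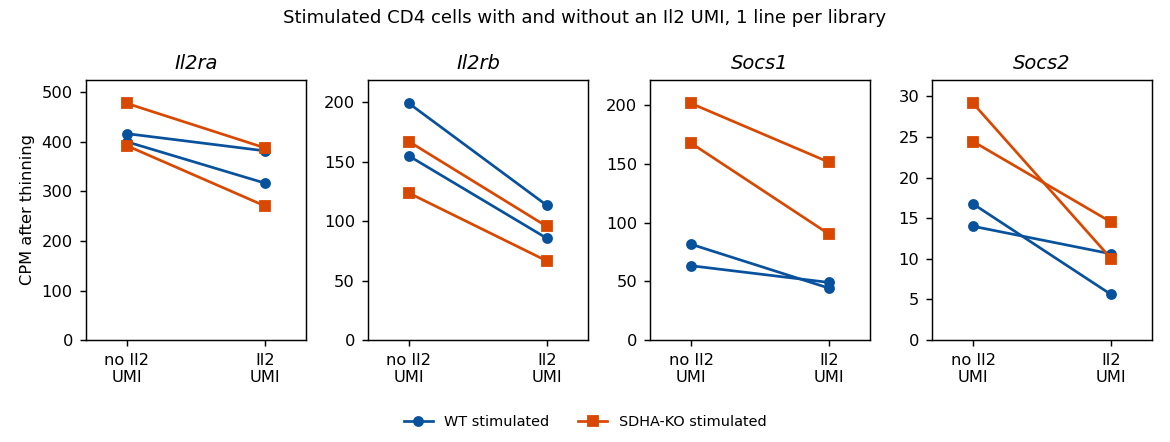
Il2ra, Il2rb, Socs1 and Socs2 in stimulated CD4 cells without and with an Il2 UMI, each cell thinned to 5000 UMIs (CPM, 1 line per library). Il2rb is lower in cells with an Il2 UMI in all 4 libraries, from 155 and 199 to 85.5 and 113 CPM in WT and from 167 and 124 to 95.5 and 66.5 CPM in SDHA-KO.

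The other genes of the pathway were counted in lists of related cytokines, receptors, inhibitors, responsive genes and regulators. Among the cytokines that also use the γ chain, 2 of 4 tested were higher in stimulated SDHA-KO CD4 cells and 2 of 3 in CD8 cells, and none was lower, beside 22.7% and 26.8% of all genes tested that were higher. With so few genes these shares say little about the list. Il9 in CD4 cells rested on 78 UMIs in SDHA-KO and 6 in WT libraries (3.46 ± 0.77), a call lost without stimulated WT replicate 1 (3.15). Il21 in CD4 cells (3.41 ± 0.83) was lost with DESeq2 (3.46), with limma (0.03 in natural-log units of mean values per cell) and without stimulated SDHA-KO replicate 1 (1.78) or stimulated WT replicate 1 (2.93). Il21 in CD8 cells rested on 181 against 5 UMIs (5.39 ± 0.75). Of the other γ chain receptors and JAKs, 1 of 6 was higher in SDHA-KO CD4 cells (Il21r, 0.63 ± 0.09) and 2 lower (the largest fall in Il15ra, -0.63 ± 0.14, lost in cells under 10% mitochondrial UMIs at -0.43), and in CD8 cells 1 of 5 was lower (Il4ra, -0.69 ± 0.08). Of all genes tested, 20.5% were lower in CD4 and 23.5% in CD8 cells, and these counts too say little about the list.

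Of the 9 other SOCS genes and STAT phosphatases, 3 were higher and 0 lower in stimulated SDHA-KO against WT CD4 cells, with a list median of -0.10, and 2 were higher and 0 lower in CD8 cells, with a median of -0.08. Socs5 led in CD4 cells (0.38 ± 0.12), a call lost with DESeq2 (0.40) and without stimulated SDHA-KO replicate 1 (0.36) or stimulated WT replicate 1 (0.33) or 2 (0.47), and Ptpn6, the phosphatase SHP-1, in CD8 cells (0.42 ± 0.09), a call lost in cells under 10% mitochondrial UMIs (0.07). Of 16 genes known to respond to IL-2 and STAT5, 6 were higher and 4 lower in CD4 cells (median 0.26), and 10 higher and 3 lower in CD8 cells (median 0.53), beside 22.7% higher and 20.5% lower of all genes tested in CD4 and 26.8% and 23.5% in CD8 cells. The counts depended on which cells were taken: in strictly defined CD8 cells Gzmb (0.13), Lta (0.05), Osm (-0.01) and Pim2 (0.19) were no longer called, and in strictly defined CD4 cells Prf1 (-0.77) and Foxp3 (0.18) were not. Cells with a Trdc UMI and the NK cell list (mostly Gzma in SDHA-KO), given above, were also higher in stimulated SDHA-KO than WT CD8 cells. Their part in these counts was not tested. In CD4 cells the leading rise was Pim1, a serine/threonine kinase (1.04 ± 0.10), and the leading fall Lta, lymphotoxin α (-1.27 ± 0.14). In CD8 cells they were Foxp3 (1.5 ± 0.52, on 48 against 23 UMIs, a call lost in cells under 10% mitochondrial UMIs at 0.99, with DESeq2 at 1.54 and without either unstimulated SDHA-KO library, at 1.51 each) and Bcl2, a survival gene (-1.56 ± 0.12).

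Of 14 regulators of Il2 transcription, 3 were higher and 4 lower in stimulated SDHA-KO CD4 cells, and 2 higher and 4 lower in CD8 cells. The 7 and 6 of 14 called are close to the 43.2% and 50.4% of all genes. In CD4 cells, where Il2 was lower, Rela led the rise (0.85 ± 0.10) and Nfatc2 the fall (-0.53 ± 0.09). In CD8 cells Egr1 led the rise (0.77 ± 0.15) and Zeb1, a repressor of Il2, the fall (-0.66 ± 0.09). In unstimulated SDHA-KO cells Jun (-1.04 ± 0.19 in CD4 and -1.29 ± 0.18 in CD8 cells) and, in CD4 cells, Junb (-0.33 ± 0.07) were lower and the other regulators did not pass.

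The same lists on stimulation of WT cells moved in both directions. Of the 16 responsive genes 8 rose and 6 fell in CD4 cells and 10 rose and 3 fell in CD8 cells, led by Gzmb, granzyme B (9.70 ± 0.43 and 12.21 ± 0.26). The leading falls were Foxp3 in CD4 (-4.01 ± 0.28) and Bcl6 in CD8 cells (-2.63 ± 0.16). Of the 14 regulators of Il2, 5 rose and 9 fell in CD4 and 4 rose and 8 fell in CD8 cells, beside 36.2% and 30.1% of all genes in CD4 and 35.5% and 30.3% in CD8 cells, with Nfkb1 the leading rise (1.61 ± 0.09 and 2.04 ± 0.08) and Prkcq, protein kinase C θ, the leading fall (-2.45 ± 0.07 and -2.32 ± 0.08). Some of the smaller falls depended on the setting: Rela in CD4 cells was lost in 8 alternatives and was at 0.0005 in cells under 10% mitochondrial UMIs, where Junb turned to 0.06, and in CD8 cells Ikzf3 (0.12) and Zeb1 (0.15) turned sign without composition normalization. Among receptors Il15ra rose in CD4 (2.73 ± 0.21) and CD8 cells (1.72 ± 0.17) while Il9r fell in CD4 (-3.11 ± 0.57) and Jak1 in CD8 cells (-1.89 ± 0.08). Socs7 led the SOCS and phosphatase genes (0.84 ± 0.22 in CD4, lost without unstimulated WT replicate 2 at 0.53, and 1.22 ± 0.20 in CD8 cells).

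The genes whose levels most resembled each of the 10 were sought over the 16 sums of library and class, by Pearson correlation of log2 CPM among 5753 genes that averaged 20 CPM or more. These sums share libraries and the contrast of states, so the values are a description with no test. The closest were Cd52 for Il2rg (r = 0.994), Hvcn1 for Il7r (0.990), Nr4a3 for Stat5a (0.987), Stmn1 for Cish (0.979) and Tnfrsf4, the gene of OX40, for Il2ra (0.974). For the others they were Cd81 for Socs2 (0.970), Usp9x for Stat5b (0.962), Slc16a6 for Il2rb (0.957), Mettl5 for Socs1 (0.946) and Irak2 for Il2 (0.930).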

How the data were processed

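Cells were sequenced with the 10x Genomics 3′ HT chemistry; per the labels, reads were processed with bcl2fastq and Cell Ranger against mm10 (versions not given in the sources used here). The authors filtered cells in Seurat, kept clusters with Cd3 genes, and set each cell's CD4 or CD8 class from its cluster and its Subtype from marker genes. The deposited annotation gives each cell's percent of mitochondrial UMIs and the log10 ratio of Cd4 to Cd8a UMIs, both computed by the authors. The deposited values are raw UMI counts of 20170 genes in 12846 cells with that annotation, and all values were whole numbers. Doublets were not called here. Counts were summed per library and class, or Subtype, and all 4 groups of a class were fitted together with edgeR 4.0.16 in R 4.3.3 (TMM scaling, filterByExpr with a minimum count of 10 and a minimum total of 15, quasi-likelihood F test, 2-sided, Benjamini-Hochberg adjustment, threshold 0.05). CD8 and CD4 cells were compared with the library as a block, and Subtypes with at least 20 cells in all 4 libraries of a state were fitted alone. The SE is the log2 fold change divided by the square root of F. For shares of cells and Il2-positive cells, each cell was thinned to 5000 UMIs (seed 20) and shallower cells were left out, in CD4 cells 74 and 86 of stimulated SDHA-KO, 18 and 20 of stimulated WT, 56 and 79 of unstimulated SDHA-KO and 99 and 62 of unstimulated WT libraries, and in CD8 cells 2 to 12 per library. Exact intervals and floors cover counting error only. Common dispersions gave a spread between replicates of 8.73% in CD4 and 8.24% in CD8 cells. The scripts were tested on simulated counts. Values from limma are differences of mean natural-log values per cell and not log2 fold changes, so their sizes cannot be compared. Alternatives were DESeq2 1.42.0, limma 3.58.1 on mean log values per cell, no filter, no composition normalization, cells under 10% mitochondrial UMIs, strictly defined classes, cells without Foxp3, a replicate block, only the groups compared, each library left out, thinning to 3000 UMIs, and Il2-positive cells with at least 2 UMIs; added after seeing the data were nuclear genes only (without the 13 mitochondrial genes), families of Subtypes, the Trdc split and the level of Il2 without the highest cell. No alternative, leaving out a library included, was run on the families of Subtypes. The 10 genes were described in every comparison, and of each pathway list the counts and the leading called rise and fall. The genes and lists were chosen with earlier results of these data known. Same-numbered replicates did not deviate together (correlations of -0.084 to 0.058), so the numbers do not pair libraries.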

Additional observations from a re-analysis of the deposited data

Results flagged for a closer look

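For 12 results the SDHA-KO effect differed between 2 settings by edgeR's test of the difference itself. Between stimulated and unstimulated CD4 cells the effect differed for Il7r (1.58), Il2rg (0.53) and Il2ra (-0.54), and between the states of CD8 cells for Il7r (0.94) and Stat5b (-0.62), each value being the log2 effect in stimulated cells minus that in unstimulated cells. Between CD8 and CD4 cells of stimulated libraries it differed for Il7r (-1.19), Il2rb (0.57), Socs1 (-0.48), Il2rg (-0.44) and Stat5b (-0.34), and in unstimulated libraries for Il7r (-0.47) and Socs1 (-0.74), each being the effect in CD8 minus that in CD4 cells. Il7r passed in all 4 of these tests, which share libraries. Groups of 2 libraries are too small for a search for stray samples.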

How the results depend on the processing

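Counts of calls moved with several choices, and the cause was not tested; keeping cells under 10% mitochondrial UMIs removed most stimulated WT cells. Out of 10 genes per comparison, stimulated SDHA-KO against WT gave 7 calls in CD4 cells and 4 under 10% mitochondrial UMIs, and in CD8 cells 5, then 2 under 10% mitochondrial UMIs and 3 with DESeq2. Unstimulated CD4 cells gave 0, but 4 without the filter, 1 with DESeq2 and 2 with only the groups compared; unstimulated CD8 cells gave 0, but 1 in strict cells, under 10% mitochondrial UMIs, without Foxp3, without the filter, with DESeq2, limma, the replicate block and only the groups compared. The difference between states gave 3 in CD4 (6 with limma) and 2 in CD8 cells (1 under 10% mitochondrial UMIs, 4 with limma). CD8 against CD4 gave 5 for the stimulated difference (3 in strict cells), 7 in unstimulated SDHA-KO (4 with DESeq2) and 2 for the unstimulated difference (1 without composition normalization or with DESeq2). Il2 status gave 4 in CD4 cells (1 with DESeq2) and 1 in CD8 cells (0 without the filter, without composition normalization, with DESeq2 and at 3000 UMIs). Leaving out 1 library gave 4 to 7 for stimulated SDHA-KO against WT in CD4 and 2 to 7 in CD8 cells, 0 to 1 in either unstimulated class, 9 to 10 and 7 to 9 for WT stimulation in CD4 and CD8, 10 to 10 and 9 to 10 for SDHA-KO stimulation, 2 to 3 and 0 to 3 for the states, 4 to 6, 5 to 9 and 4 to 6 for CD8 against CD4 in stimulated WT, SDHA-KO and their difference, 5 to 7, 6 to 7 and 1 to 3 in unstimulated cells, 40 to 61 Subtype calls (52 with all libraries), and 1 to 4 and 0 to 1 for Il2 status in CD4 and CD8. Signs turned with limma on mean log values, in natural-log units, for Stat5b in WT stimulation (0.17 in CD4, 0.30 in CD8), Il2rg in CD4 (0.016) and Stat5b in CD8 SDHA-KO stimulation (0.0127), and between states for Cish (0.15 in CD4, 0.10 in CD8) and Socs2 in CD4 cells (0.0382). They turned in strict cells for stimulated CD8 Socs2 (-0.0418) and Il2rb (-0.67), Stat5a of SDHA-KO CD8 against CD4 (0.30) and the stimulated Il2rb difference between classes (-0.37), without composition normalization for Stat5b in WT CD8 stimulation (0.45), and without stimulated SDHA-KO replicate 2 for Il2ra in CD8 Tcm2 (leaving out 1 library gave -0.4839 to 0.32). The replicate block turned no sign; it added Il7r in unstimulated CD8 cells (-0.72) and lost Il2 in WT CD8 stimulation (3.59), and numbers shared between groups are no pairing here. The share of cells with a UMI gave 11 of 20 genes and classes under each alternative run for it. Values with no adjusted p from DESeq2 (65) were left out, 236 values not called in either setting had the other sign, and Il2-positive CD8 cells with at least 2 Il2 UMIs were not run because 1 library has none. Depth limits Il2, Il2ra and Socs2 in unstimulated CD8 cells, which rest on few UMIs.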
